A study of Mus musculus with 6 samples.

Results

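The 10 genes described here encode neuronal RNA-binding proteins that regulate splicing: Elavl2, Elavl3 and Elavl4, Celf2 and Celf4, Nova1 and Nova2, and Rbfox1, Rbfox2 and Rbfox3. They were taken by symbol from the 32531 gene entries of the deposited counts, and all 10 were found and all 10 were among the 17197 genes that passed the low-count filter. Ribosome-bound RNA came from the midbrain of untreated adult control mice of the Lhx5-TRAP line DT154, which carries a ribosomal protein Rpl10a tagged with EGFP and named for the Lhx5 gene that directs it, so that anti-EGFP beads pull down polysomes of the tagged neurons. The line is a single transgenic line and the labels name no neuron type within the midbrain. The comparison is of 3 immunopurified (IP) libraries with 3 input libraries of the same line. The titles call the second kind input and another label calls it unbound, and the labels do not say whether replicates were separate animals, so each p-value here reflects variation among these 6 libraries only, and that variation could be technical.

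ELAV-like proteins bind uridine-rich and AU-rich elements and stabilise messenger RNAs as well as steering exon choice, and the members here are the neuronal ones. CELF proteins bind GU-rich sequence, Nova proteins bind clusters of short pyrimidine-flanked CA elements through KH domains, and Rbfox proteins bind UGCAUG and promote or repress an exon depending on which side of it they bind. Rbfox3 carries the NeuN epitope used to stain neuronal nuclei, while Rbfox2 and Celf2 are also made outside neurons. Reads were counted per gene, so the values below are messenger RNA abundances on ribosomes or in tissue, and exon choice was not measured.

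Because the question of which paralog changed rests on reads that tell paralogs apart, the coding stretches in which the members of 3 families are most alike are shown here, 90 bases each, 5′ to 3′ on the coding strand, from GENCODE M21 transcripts (GRCm38). Capitals mark positions at which the family members are not all identical. The Elavl stretches encode part of an RNA recognition motif and lie in 1 exon each, at chr4:91253294-91253383, minus strand for Elavl2, chr9:22018557-22018646, minus strand for Elavl3 and chr4:110206386-110206475, minus strand for Elavl4.
Elavl2: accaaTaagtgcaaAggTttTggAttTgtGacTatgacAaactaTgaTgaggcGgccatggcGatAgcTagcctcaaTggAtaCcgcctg
Elavl3: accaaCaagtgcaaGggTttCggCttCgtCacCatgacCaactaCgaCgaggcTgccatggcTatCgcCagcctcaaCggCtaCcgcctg
Elavl4: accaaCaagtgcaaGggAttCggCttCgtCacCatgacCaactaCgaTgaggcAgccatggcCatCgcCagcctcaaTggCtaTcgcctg
The Nova stretches encode part of a KH domain and lie in 1 exon each, at chr12:46700839-46700928, minus strand for Nova1 and chr7:18957581-18957670, plus strand for Nova2.
Nova1: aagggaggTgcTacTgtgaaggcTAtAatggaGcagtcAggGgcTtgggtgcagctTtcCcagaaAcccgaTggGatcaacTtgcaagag
Nova2: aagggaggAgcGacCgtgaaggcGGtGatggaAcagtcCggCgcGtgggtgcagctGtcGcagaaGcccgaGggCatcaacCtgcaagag
The Rbfox stretches encode part of the RNA recognition motif and are spliced from 3 exons, within chr16:7277148-7292199, plus strand for Rbfox1, chr15:77105655-77116941, minus strand for Rbfox2 and chr11:118502920-118505643, minus strand for Rbfox3.
Rbfox1: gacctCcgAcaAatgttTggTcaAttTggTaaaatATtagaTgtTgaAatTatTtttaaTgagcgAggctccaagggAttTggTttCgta
Rbfox2: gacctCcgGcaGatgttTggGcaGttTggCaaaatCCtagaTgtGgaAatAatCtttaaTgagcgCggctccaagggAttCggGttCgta
Rbfox3: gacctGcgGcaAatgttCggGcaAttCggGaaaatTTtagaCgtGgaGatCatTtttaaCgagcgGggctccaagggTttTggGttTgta

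Even in these most similar stretches the paralogs differed at 18 of 90 positions in the Elavl family, 16 in the Nova pair and 21 in the Rbfox family, and 18, 14 and 20 of those positions were the third base of a codon. Over the longest annotated coding sequences, identity between aligned bases ran from 64.5% for Celf2 with Celf4 to 78.1% for Elavl3 with Elavl4. The longest identical coding run of any of the 8 pairs was 29 bases, and 0 of the 50-base words of any transcript of one member occurred in its paralog. Words shared with other genes were a separate matter. Nova2 shared 30.7% of its 50-base words with other transcripts, mainly the antisense long noncoding RNA Gm26821, which overlaps 2652 bases of its exons. Celf2 shared 6.96%, through the antisense noncoding RNA Gm26565 (1961 exonic bases), Elavl3 3.13%, mainly through the same-strand entry Gm49318, Nova1 3% through Gm33869, and Celf4 0.203%. None of the 4 overlapping genes named here is an entry of the count files, and the strand setting is not given in the sources used here, so reads from them cannot be told apart from those of Nova2, Celf2, Elavl3 and Nova1. Elavl2, Elavl4, Rbfox1, Rbfox2 and Rbfox3 shared 0 words with any other gene.

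Library totals ran from 38058239 to 45841499 counts, and the members had 3627 to 43058 counts in any library, so counting error was small for all of them. Lhx5, the gene for which the line is named, stood in IP at 50.7 ± 4.81 CPM (SD, n = 3; the usual counts-per-library scale, with totals adjusted by TMM) and in input at 3.31 ± 0.963 (SD, n = 3). The 10 oligodendrocyte markers summed to 347 to 506 CPM in IP and 4263 to 5046 in input, the 10 astrocyte markers to 387 to 494 and 1736 to 2371, and 19 of these 20 markers were lower in IP. The 20 pan-neuronal genes summed to 32921 to 38528 CPM in IP and 14752 to 19675 in input, lowest in input replicate 3. Snap25 alone held 17916 of the mean IP sum of 36329 CPM, so the sum leans on few genes. Most of the list was lowest in input replicate 3 among inputs, but some genes were highest there, such as Map2 (871 CPM against 768 and 841). Single libraries stood apart. IP replicate 2 had 2316 CPM of the 9 Purkinje cell markers against 840 and 904 in the other IP libraries. Input replicate 3 had 1507 CPM of the 9 striatal neuron markers against 407 and 218 in the other inputs, 1751 CPM of the 6 choroid plexus markers tested against 694 and 242, and 60.7 CPM of the 12 midbrain neuron markers against 191 and 169. In that library the midbrain factors Gata3 and Tal1, singled out after their values were seen, were at 0.741 and 1.26 CPM, against 14.4 to 16.8 in the other 2 inputs. By the test of IP against input, 3 of the 9 Purkinje cell markers were higher and 0 lower. Of the 9 striatal markers 1 was higher and 5 lower, and of the 6 choroid plexus markers 0 were higher and 3 lower. Of the 12 midbrain neuron markers 2 were higher and 5 lower. Beside all these marker counts, 26.0% of all tested genes were called higher and 27.9% lower. The part of glial RNA in the members' input levels was not tested.

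Of the 10 members, 6 were higher in IP, 1 was lower and 3 were not called. Elavl2, Elavl4, Nova1, Celf4, Rbfox2 and Rbfox3 rose, by 1.25-fold (Celf4) to 2.0-fold (Nova1), Celf2 fell, and Elavl3, Nova2 and Rbfox1 did not pass (edgeR quasi-likelihood test, Benjamini-Hochberg adjusted p under 0.05 over all 17197 genes). Each of the 6 was higher in 3 of 3 same-numbered pairs, which follows from the lack of overlap between groups given below. With upper-quartile scaling 4 stayed called, beside 3429 of all 17197 genes called higher. Across all tested genes 26.0% were called higher and 27.9% lower. Higher genes made up 48.2% of the calls, and 38.1% with upper-quartile scaling, which moved the median log2 fold change of all genes from -0.01 to -0.17. The median of the 10 members was 0.33, against 0.93 for 20 pan-neuronal genes. All 3 IP libraries stood above all 3 inputs for 6 members, against 30.7% of all tested genes, and below them for 2 members, against 32.8%. A change past 2-fold was shown for 0 members, against 2.25% of genes upward and 12.9% downward (edgeR glmTreat, 0 members at an unadjusted p under 0.05, and 0 also by DESeq2 and limma-voom). In these bulk samples, fewer cells of a type and less RNA per cell cannot be told apart.

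**Figure D1:**
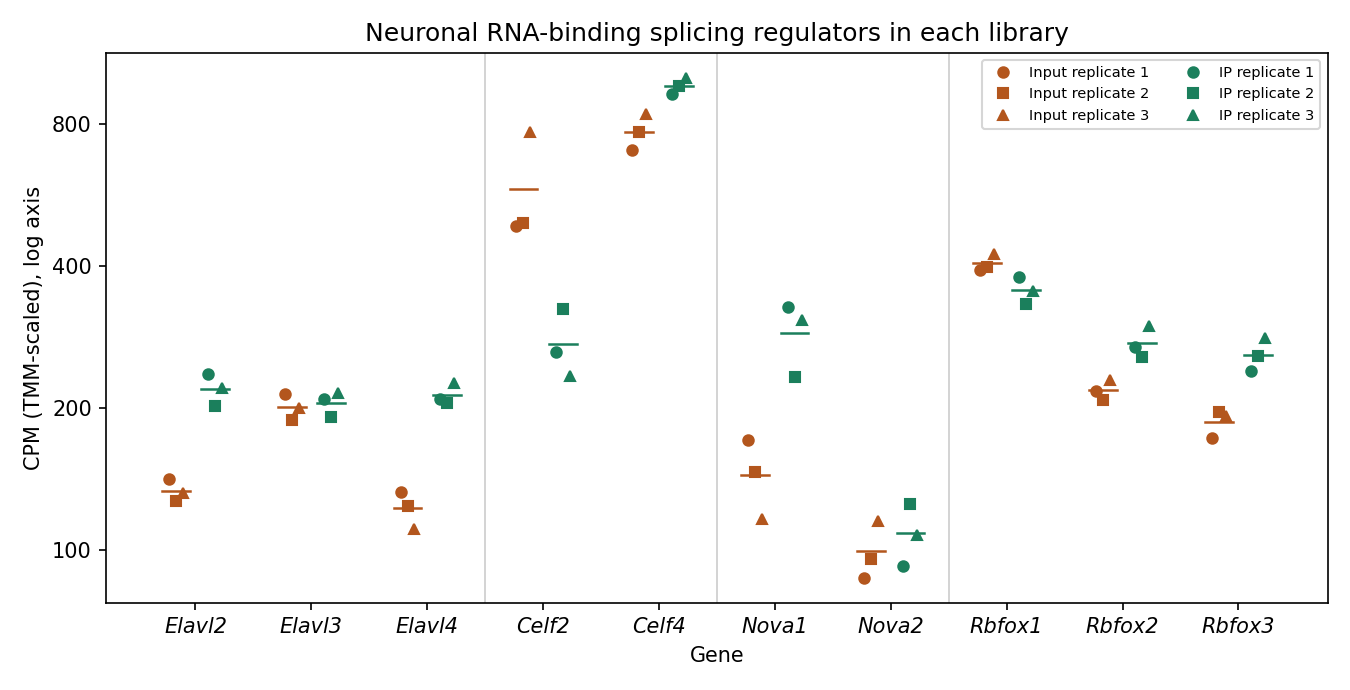
CPM of each member in every library on a log axis, with input in orange, IP in green, 1 symbol per replicate number and a line at each group mean. Input and IP do not overlap for Elavl2, Elavl4, Celf2, Celf4, Nova1, Rbfox1, Rbfox2 and Rbfox3, and Celf2 is highest in input replicate 3 at 770 CPM.

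In the ELAV-like family, Elavl2 and Elavl4 rose by similar amounts and Elavl3 did not pass. Elavl2 (chromosome 4, 91250763 to 91400785), which encodes HuB, had 237, 202 and 221 CPM in IP replicates 1, 2 and 3 and 141, 127 and 132 in the input replicates. Every IP library was above every input library, and the log2 fold change was 0.72 (SE 0.11, edgeR adjusted p 0.000782). Elavl4 (chromosome 4, 110203722 to 110351909), which encodes HuD, a stabiliser of transcripts in growing axons, had 209, 205 and 225 CPM in IP and 133, 124 and 111 in input. These groups were also separate, with a log2 fold change of 0.80 (SE 0.11, edgeR adjusted p 0.000543). Elavl3 (chromosome 9, 22015005 to 22052023), which encodes HuC, had 209, 191 and 215 CPM in IP and 214, 189 and 200 in input. Its groups overlapped, with a log2 fold change of 0.03 (SE 0.10, edgeR adjusted p 0.823), and the sign was negative with each of the other scalings (-0.12 with upper-quartile scaling). Summed over the 3 genes, IP libraries held 638 ± 35.4 CPM (SD, n = 3) and inputs 457 ± 26.4 (SD, n = 3). Elavl3 made up 44.0% ± 1.14 of the family's counts in input and 32.1% ± 0.329 in IP.

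The CELF members went in opposite directions. Celf2 (chromosome 2, 6539694 to 7509563), a broadly made regulator of splicing and RNA stability, had 263, 325 and 233 CPM in IP and 487, 494 and 770 in input. All IP libraries were below all inputs, and input replicate 3 stood well above the other 2. The log2 fold change was -1.09 (SE 0.20, edgeR adjusted p 0.00231), a level 2.13-fold higher in input. Without input replicate 3, the library high in striatal markers, it was -0.86 (edgeR adjusted p 0.00435), and without IP replicate 2 as well it was -1.03 (edgeR adjusted p 0.00153). The smallest fall of the 20 alternatives was -0.73, without both libraries of replicate 3 (edgeR adjusted p 0.00127). Celf4 (chromosome 18, 25477632 to 25754157), which regulates messenger RNAs of excitatory neurons and is a seizure gene in mice, was the member with the most counts, at 927, 967 and 1004 CPM in IP and 706, 771 and 841 in input. The groups did not overlap, but the rise was small, with a log2 fold change of 0.32 (SE 0.10, edgeR adjusted p 0.028). The call was lost in 12 of 20 alternatives, among them the removal of any 1 of the 3 IP libraries (edgeR adjusted p 0.0511, 0.0569 and 0.05003 without replicates 1, 2 and 3). Upper-quartile scaling (log2 fold change 0.17, edgeR adjusted p 0.213) and the removal of input replicate 1 (0.107) or 2 (0.0846) also lost it.

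The other CELF genes also divided. Celf1, the ubiquitous family founder, fell by 1.10 on the log2 scale (SE 0.18, edgeR adjusted p 0.00122), and Celf5 fell by 0.94 (SE 0.22, edgeR adjusted p 0.00697). Celf6 rose by 0.94 (SE 0.21, edgeR adjusted p 0.00514). Its IP level was 42.0 ± 2.45 CPM (SD, n = 3) and its input level 21.9 ± 6.79 (SD, n = 3). Celf3 had a log2 fold change of -0.18 (SE 0.19, edgeR adjusted p 0.451). Among inputs, replicate 3 was highest for Celf2, Celf4 and all of these CELF genes, whether they fell, rose or did not pass. Celf1 had 213 CPM there against 143 and 150, and Celf5 had 167 against 88.5 and 108. Celf3 had 92.7 against 59.1 and 57.6, and Celf6 had 29.5 against 19.8 and 16.5. Elavl1, the ubiquitous HuR gene and the remaining relative of the ELAV-like members, had a log2 fold change of -0.27 (SE 0.12, edgeR adjusted p 0.0797), with all IP libraries below all inputs. Of these 5 relatives 1 rose, 2 fell and 2 did not pass, beside 26.0% of all tested genes called higher and 27.9% lower. The number that fell was 3 under upper-quartile scaling, beside 5567 of all 17197 genes, and 3 without IP replicate 2.

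**Figure D2:**
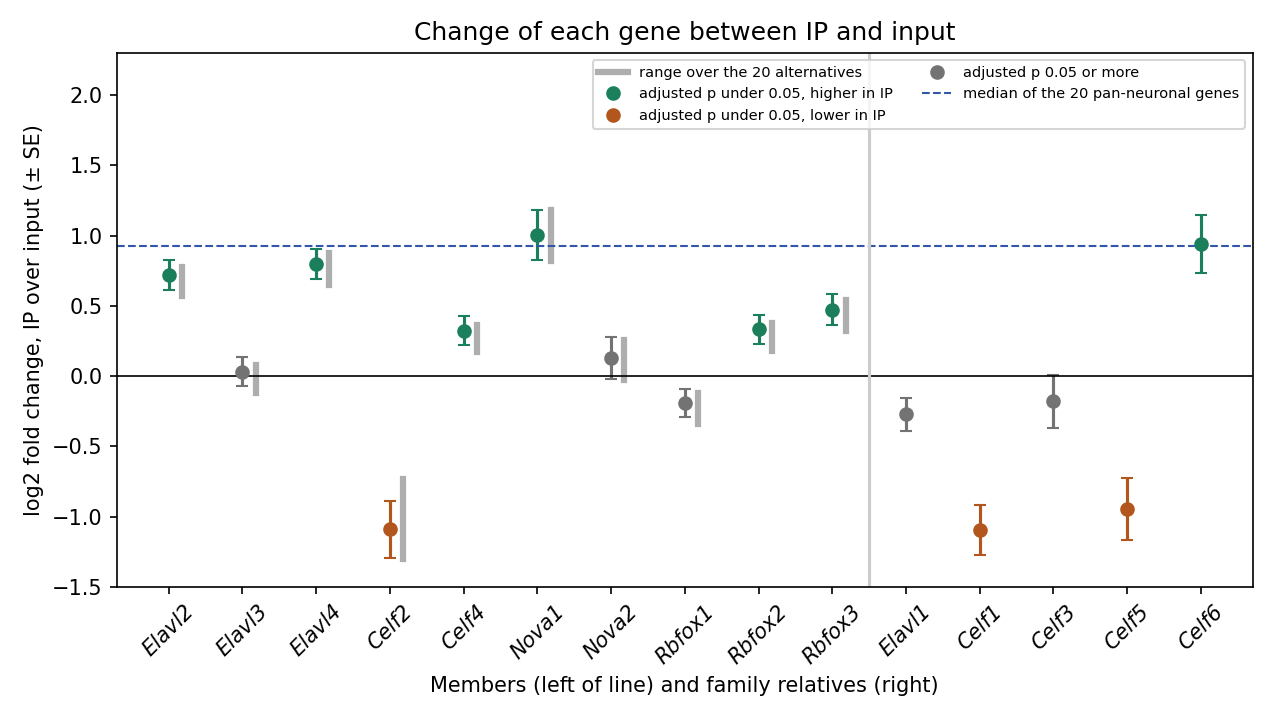
Log2 fold change of IP over input for the 10 members and the 5 family relatives, with SE bars, and for the members a grey bar with the range over 20 alternatives. Nova1 is highest at 1.002 and Celf2 lowest of the members at -1.09, and the dashed line marks the pan-neuronal median of 0.93.

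Nova1 had the largest rise of the members and Nova2 did not pass. Nova1 (chromosome 12, 46694517 to 46818929) is known for control of inhibitory synapse transcripts in brainstem and spinal cord. It had 328, 232 and 307 CPM in IP and 171, 146 and 116 in input. The lowest IP library, replicate 2, was still above the highest input, and the log2 fold change was 1.002 (SE 0.18, edgeR adjusted p 0.00181), or 2.0-fold. Of all tested genes 9.23% had a larger log2 fold change. Nova2 (chromosome 7, 18925888 to 18965319), the family member prominent in neocortex, had 92.5, 125 and 107 CPM in IP and 87.2, 95.6 and 115 in input. The groups overlapped, with a log2 fold change of 0.13 (SE 0.15, edgeR adjusted p 0.504), and the sign was negative without IP replicate 2 (-0.02), under upper-quartile scaling (-0.03) and under library totals (-0.01). Nova1 was lowest and Nova2 highest in IP replicate 2 among IP libraries and in input replicate 3 among inputs, the 2 libraries with raised Purkinje cell or striatal markers. The part of those cells in the spread was not tested.

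In the Rbfox family 2 members rose modestly and Rbfox1, the most abundant of the 3 per length, did not pass. Rbfox3 (chromosome 11, 118489762 to 118911597) had 239, 258 and 281 CPM in IP and 173, 196 and 192 in input. All IP libraries were above all inputs, with a log2 fold change of 0.47 (SE 0.11, edgeR adjusted p 0.00648). The call was lost in 1 of 20 alternatives, when both libraries of replicate 1 were left out (edgeR adjusted p 0.0614). Rbfox2 (chromosome 15, 77078990 to 77307004) had 270, 257 and 298 CPM in IP and 217, 208 and 230 in input. Its groups were separate too, with a log2 fold change of 0.33 (SE 0.10, edgeR adjusted p 0.0258), but the call was lost in 10 of 20 alternatives, among them the removal of IP replicate 1, input replicate 1 or input replicate 2 (edgeR adjusted p 0.0545, 0.0752 and 0.1). With upper-quartile scaling Rbfox2 had 0.18 (edgeR adjusted p 0.189). Rbfox1 (chromosome 16, 5885355 to 7411526), whose gene spans 1526 kb, had 380, 332 and 355 CPM in IP and 393, 399 and 425 in input. All IP libraries were below all inputs, by a log2 fold change of -0.19 (SE 0.10, edgeR adjusted p 0.141), which did not pass. It passed as a fall under upper-quartile scaling (-0.34, edgeR adjusted p 0.0186), under library totals (-0.33, edgeR adjusted p 0.0183) and among protein-coding genes only (-0.29, edgeR adjusted p 0.0254).

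Ratios between paralogs within a library do not depend on scaling between libraries. The count ratio of Elavl2 to Elavl3 was 1.13, 1.06 and 1.03 in IP and 0.660, 0.673 and 0.659 in input. That of Elavl3 to Elavl4 was 0.999, 0.934 and 0.954 in IP and 1.61, 1.52 and 1.81 in input. Elavl2 to Elavl4 overlapped between groups, at 0.980 to 1.13 in IP and 1.02 to 1.19 in input. Relative to both other family members Elavl3 was thus lower in every IP library than in any input. Celf2 to Celf4 was 0.284, 0.336 and 0.232 in IP and 0.689, 0.640 and 0.915 in input, the largest shift of the 8 pairs at -1.40 on the log2 scale. Rbfox1 to Rbfox2 was 1.41, 1.29 and 1.19 in IP and 1.81, 1.92 and 1.85 in input. Rbfox1 to Rbfox3 was 1.59, 1.29 and 1.26 in IP and 2.28, 2.04 and 2.21 in input. Against both relatives Rbfox1 was thus lower in every IP library than in any input. Rbfox2 to Rbfox3 overlapped, at 0.997 to 1.13 in IP and 1.06 to 1.26 in input. Nova1 to Nova2 was 3.55, 1.86 and 2.86 in IP and 1.96, 1.53 and 1.01 in input, where IP replicate 2 fell below input replicate 1.

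Of the 8 pairs, 5 had no overlap between groups, and each of these had an exact two-sided permutation p of 0.1, the smallest that 3 against 3 libraries can give, or 0.16 after Benjamini-Hochberg adjustment over the 8 pairs. The Nova and Rbfox2 to Rbfox3 pairs had an exact permutation p of 0.2 (adjusted 0.229), and Elavl2 to Elavl4 had 0.5. This permutation test cannot go below 0.1 with these libraries, so none of the ratios passed it. Among single genes, 30.7% of all tested had every IP library above every input and 32.8% had every one below. Such a share was not computed for ratios of other gene pairs, and several of the 8 pairs share a gene. A count of 5 of 8 is thus not read as particular to the paralogs.

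**Figure D3:**
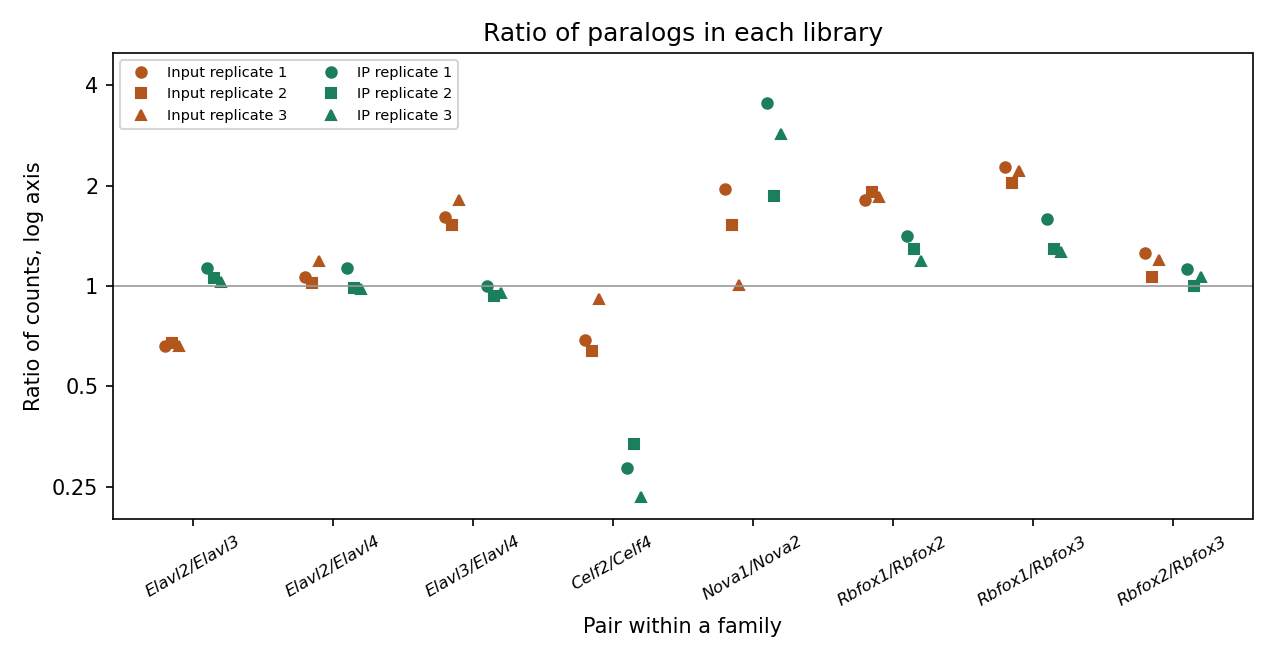
Ratio of counts of 2 family members in each library on a log axis, with input in orange, IP in green and 1 symbol per replicate number. The groups are apart for Elavl2/Elavl3, Elavl3/Elavl4, Celf2/Celf4, Rbfox1/Rbfox2 and Rbfox1/Rbfox3, and overlap for the other 3 pairs.

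Between genes, levels were compared per length, as CPM per kilobase of all annotated exons. In IP the order of these levels was Celf4 (113 ± 4.49), Rbfox1 (80.8 ± 5.45), Rbfox3 (44.6 ± 3.62), Elavl4 (39.6 ± 2.03), Rbfox2 (33.8 ± 2.59), Nova1 (33.1 ± 5.74), Elavl3 (29.8 ± 1.83), Elavl2 (26.4 ± 2.10), Nova2 (12.9 ± 1.94) and Celf2 (10.6 ± 1.80; SD, n = 3 each). Celf4 was separate from Rbfox1, and Rbfox1 from Rbfox3. Libraries of Rbfox3 overlapped with those of Elavl4, those of Rbfox2, Nova1, Elavl3 and Elavl2 from neighbour to neighbour, and those of Nova2 with Celf2. In input, Rbfox1 (92.2 ± 3.86) and Celf4 (90.02 ± 7.85) led and overlapped, and Nova2 was lowest at 11.9 ± 1.70. Several places in the order depended on the length used. The annotated exons of Celf2 add up to 25884 bases and its longest transcript to 8856. Per kilobase of the longest transcript, Celf2 in input was the third highest at 65.9 ± 18.2, against 22.5 ± 6.23 and a lower place per kilobase of all exons. By that length Celf4 in input (193 ± 16.9) was separate from Rbfox1 (133 ± 5.55). In IP, Elavl2 moved from place 8 to place 4 (52.4 ± 4.16) and Rbfox2 from place 5 to place 8 (39.8 ± 3.05). Celf4, Rbfox1 and Rbfox3 kept places 1, 2 and 3 in IP by either length.

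**Figure D4:**
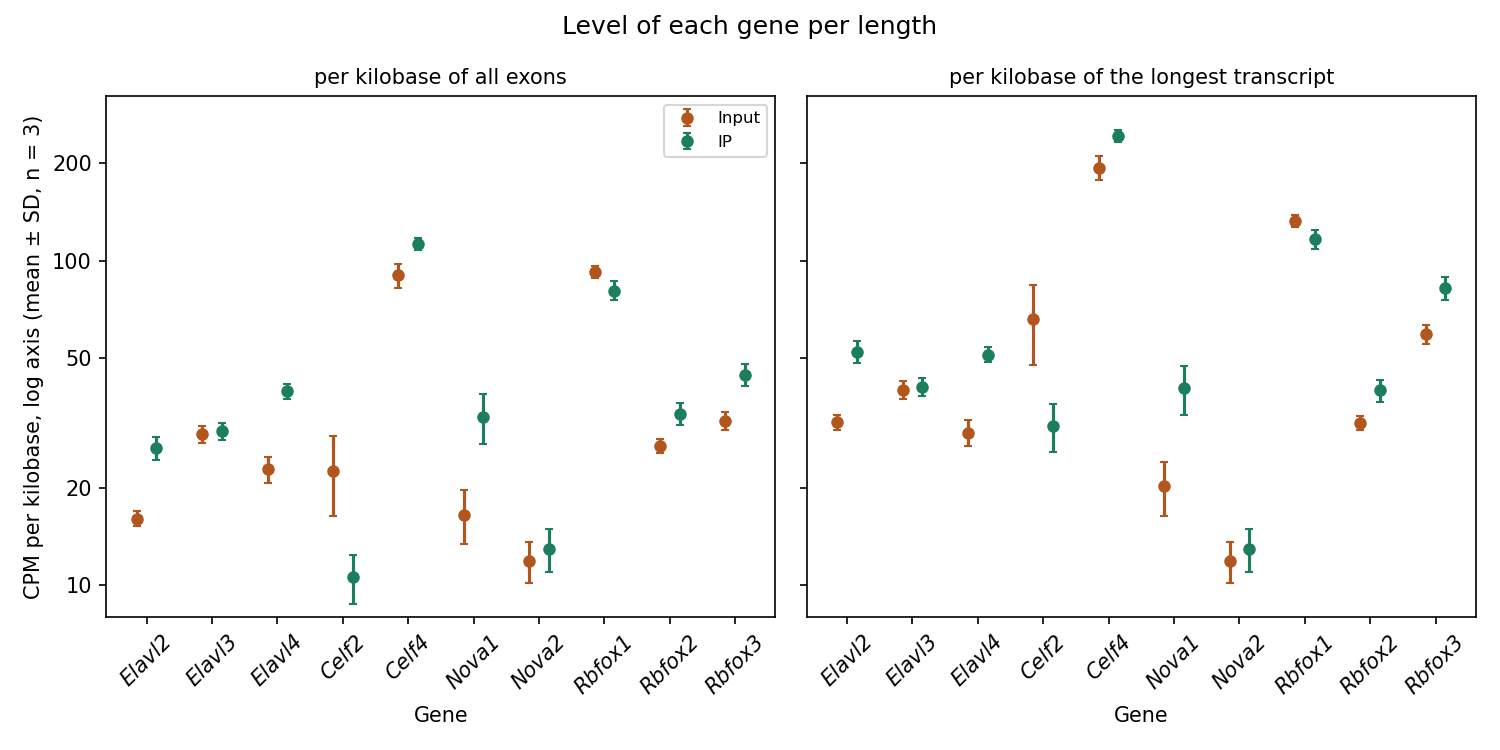
Mean CPM per kilobase of each member with SD bars (n = 3) on a log axis, per length of all annotated exons (left) and of the longest transcript (right), with input in orange and IP in green. Celf4 is the highest in IP in both panels, and Celf2 moves from the lowest IP level on the left to 30.9 on the right.

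The other lists of RNA-binding genes had medians below 0, where the median of all tested genes was -0.01. The counts called in each list stand beside 26.0% of all tested genes called higher and 27.9% lower. Of 19 tested regulators of tissue-specific splicing outside these 4 families 6 fell, 2 rose and 11 were not called. The median log2 fold change was -0.19, and 1 gene rose under upper-quartile scaling or without input replicate 1. Under upper-quartile scaling 8 fell, beside 5567 of all 17197 genes, and 5 to 7 fell with single libraries left out. Qk, the quaking gene of glia, fell by 3.65 (SE 0.13), and Srrm4, a neuronal microexon regulator, fell by 0.42 (SE 0.12). Tial1, a relative of the stress granule protein Tia1, fell by 0.55 (SE 0.15). A fall past 2-fold was shown for 3 genes of this list, beside 12.9% of all tested genes. These were Qk, Tia1 (a fall of 2.96, SE 0.15) and Ptbp3 (a fall of 1.65, SE 0.13). Khdrbs1, the Sam68 gene, rose by 0.42 (SE 0.11). Ptbp1 and Ptbp2 were chosen after their values were seen. Ptbp1, the repressor that is replaced by Ptbp2 in neurons, fell by 1.29 (SE 0.15), while Ptbp2 stood at -0.24 (SE 0.11, edgeR adjusted p 0.0926). Mbnl3 was not tested, with at most 54 counts in a library. Of the 8 genes of the LASR complex, in which Rbfox proteins act with other splicing factors, 1 rose, 2 fell and 5 did not pass. Its RNA helicase gene Ddx5 fell by 0.60 (SE 0.11) and Hnrnpm by 0.41 (SE 0.12), while Ilf2 rose by 0.48 (SE 0.12). With upper-quartile scaling 0 genes of this list rose and 4 fell, and 1 fell without IP replicate 1 or without input replicate 2.

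Of 16 genes of cytoplasmic RNA-binding proteins of neurons 7 fell, 3 rose and 6 were not called, while 27.9% of all tested genes fell and 26.0% rose. Their median was -0.27, and 1 rose under upper-quartile scaling. Purb, a carrier of dendritic RNA, fell by 1.06 (SE 0.09), Pum2, a translational repressor, by 0.30 (SE 0.11), and Cpeb4, a regulator of poly(A) tails, by 0.49 (SE 0.09). Cpeb3 of that same family rose by 0.44 (SE 0.11). The pan-neuronal list, read beside the members, had 18 of 20 genes higher and 1 lower, with Snap25 up by 1.10 (SE 0.17), Vsnl1 by 1.52 (SE 0.15) and Nsf by 0.58 (SE 0.12), and Map2 down by 0.85 on the log2 scale (SE 0.11). Except for Nova1, every member had a log2 fold change below the pan-neuronal median of 0.93. The genes named here as having changed had an edgeR adjusted p of 0.0413 or less.

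**Figure D5:**
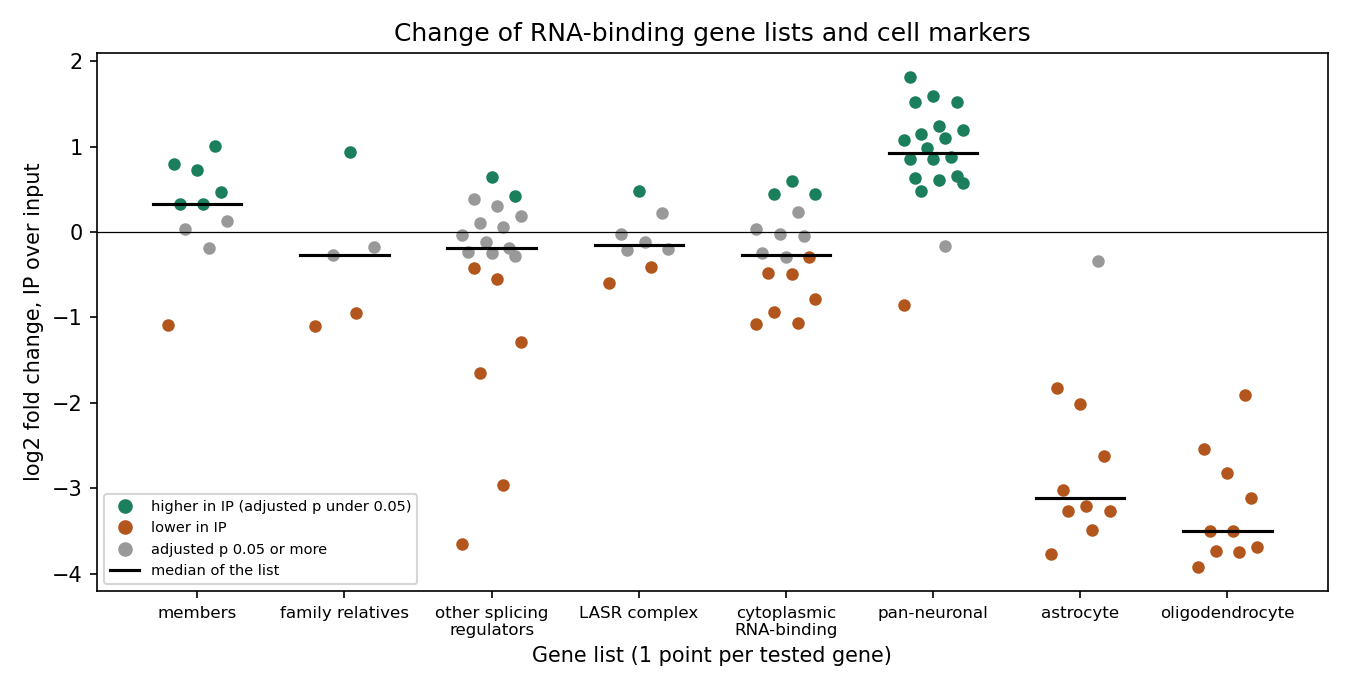
Log2 fold change of every tested gene in 6 gene lists and 2 glial marker lists, coloured by call, with a black line at each list median. The members have a median of 0.33, below the pan-neuronal 0.93 and above the other RNA-binding lists, whose medians lie between -0.27 and -0.16, and the astrocyte and oligodendrocyte medians are -3.11 and -3.50.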

How the data were processed

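RNA was measured by RNA sequencing after TRAP (translating ribosome affinity purification) in 6 libraries, 3 IP and 3 input, grouped and numbered by their titles. Each library has its own deposited table of whole-number read counts by gene symbol, not normalized by the authors. The submitters' processing notes name STAR 2.0.0e, HTSeq and the build mm10. The sources used here do not give the annotation, strand setting, counting mode or read length. HTSeq's 5 summary lines and the entry for unknown genes (at most 1.09e-06% of a library) stayed out of totals and tests. Ambiguous reads were 1.59% to 1.68% of the reads tallied in each file in IP and 8.03% to 10.9% in input. Reads without a unique alignment were 43.8% to 44.5% in IP and 31.8% to 33.0% in input. Those outside any feature were 7.74% to 7.86% in IP and 12.9% to 14.9% in input.

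Genes were filtered with filterByExpr (minimum count 10, minimum total 15; 15334 removed), scaled by TMM and tested across all 17197 genes by the quasi-likelihood F test of edgeR 4.0.16 (R 4.3.3, group as the only term, two-sided, Benjamini-Hochberg adjustment, threshold 0.05). The SE is the log2 fold change divided by the square root of F. Changes past 2-fold were tested with glmTreat. The fit was tested on simulated counts in which a small part of the genes changed, by 2-fold or more, with as many raised as lowered. That simulation does not test the scaling where changes are as many as here, or as uneven between directions as those past 2-fold here. It also does not test changes under 2-fold. Gene lists are described by counts and medians, with no set test. Named genes were the 10 members, their 5 relatives, Lhx5, and of each other list up to 3 of the most abundant called genes in the commoner direction and 1 in the other. Gata3, Tal1, Ptbp1 and Ptbp2 fall outside this rule and were chosen after their values were seen, and Mbnl3 is named as the untested gene of its list. Tia1 and Ptbp3 are named because they passed the 2-fold test. The members and lists were chosen with earlier results of these data known. Exon lengths, positions and sequences came from GENCODE M21 (GRCm38, which is mm10 under another name).

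An IP and an input library with the same number name 1 sequencing lane in the labels, which is where the pairing comes from. Within these pairs, deviations from group means had correlations of 0.155, 0.0744 and 0.0506. Small as these were, the same-numbered library was the best partner of every library. The main fit has no term for the pairs, and the replicate block below has one. Replicates differed by far more than counting noise (chi-square per degree of freedom 27.5 to 82.1), and none was treated as a duplicate.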

Additional observations from a re-analysis of the deposited data

How the results depend on the processing

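In 20 alternatives (scaling, filters, DESeq2 1.42.0, limma-voom 3.58.1, a replicate block, a threshold of 0.01, each library or pair left out, and, chosen after seeing the data, protein-coding genes only and both IP replicate 2 and input replicate 3 left out), Elavl2, Elavl4 and Nova1 stayed called higher and Celf2 lower. With the replicate block 4811 genes were higher and 4879 lower, and no call of a member changed. The number of members called lower was 2, with Rbfox1 added, under upper-quartile scaling, library totals and protein-coding genes only. With single libraries or pairs left out, 3 to 6 members were higher, with 3 without replicate 1, where 2847 of all genes were higher against 4572 without replicate 3. Genes past 2-fold upward, 387 in all, were 245 with upper-quartile scaling, 216 with DESeq2, 213 with limma-voom, 192 at a threshold of 0.01, 237 among protein-coding genes and 204 to 347 with libraries left out. Those past 2-fold downward, 2214 in all, were 1363 at 0.01, 1475 among protein-coding genes and 1223 to 2134 with libraries left out.

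The sign changed only for values near 0. Elavl3 had -0.0033 with RLE scaling and with DESeq2, -0.12 with upper-quartile scaling, -0.11 with library totals, -0.037 with a CPM of at least 1 in 3 libraries, -0.072 among protein-coding genes and -0.0094 to 0.080 with libraries left out. Nova2 had -0.027 with upper-quartile scaling, -0.010 with library totals and -0.022 to 0.25 with libraries left out. The shift of the Elavl2 to Elavl4 ratio, -0.08 on the log2 scale, was 0.013 without IP replicate 2 and input replicate 3 together and -0.17 to 0.018 with libraries left out. The cause of these changes was not tested.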
